A study of Homo sapiens with 6 samples.

Results

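The genes described here build and run the DNA replication fork. They are 56 genes for the loading and firing of origins, for the fork itself, for the supply of deoxynucleotides and for chromatin assembly behind the fork, listed by name and not by a cut on measured values, though with earlier results of these data known. Of these, 55 had a probe that carries a RefSeq accession of the gene, among 22439 genes with such a probe. For POLA2 no such probe was found, and no value is given for it. Where a gene had several probes, the one with the highest mean log2 signal was taken.

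The RNA came from AGS cells, a gastric adenocarcinoma cell line, collected 48 h after transfection of small interfering RNA. The si-control group (3 samples) received a non-targeting siRNA, and the si-C1GALT1-3 group (3 samples) received an siRNA against C1GALT1, the galactosyltransferase that makes the core 1 O-glycan. No sample was left untransfected, and the treated group rests on a single siRNA sequence in a single cell line, so the loss of C1GALT1 and any other effect of that siRNA cannot be told apart. Each sample was read on 1 single-colour Agilent array, and the comparison asks how transcript levels differed after the silencing of C1GALT1.

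Replication is prepared in G1, when the origin recognition complex, CDC6 and CDT1 load the ring-shaped MCM helicase onto DNA, a step known as licensing. At the start of S phase the kinase CDC7 with DBF4 helps CDC45 and the GINS complex to join MCM and open the helix, after which primase and the polymerases copy the strands with the sliding clamp PCNA. Many of these genes are transcribed around the passage from G1 to S phase through E2F factors. Many genes of mitosis are transcribed later through the DREAM and MYB-FOXM1 complexes, which act at CHR elements. CCAAT letters are those of a separate factor, NF-Y.

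To set promoter sequence beside the values, 120 bases upstream of the outermost RefSeq start are printed below for 9 members: 6 that were lower after silencing (DTL, CDC45, POLE, RRM1, TYMS and TK1), 1 with arrays that overlapped (PCNA) and 2 that lay slightly higher (ORC2 and POLD1). Sequences are from RefSeq on GRCh38.p14, 5′ to 3′ in the direction of the gene, and end at the base before the start site. Capitals mark matches to the E2F-type letters TTTCCCGC, TTTGGCGC, TTTCGCGC or TTCCCGCC and to CCAAT, on either strand. The first and the last E2F-type letters can overlap each other.
DTL, chr1:212035628-212035747, plus strand: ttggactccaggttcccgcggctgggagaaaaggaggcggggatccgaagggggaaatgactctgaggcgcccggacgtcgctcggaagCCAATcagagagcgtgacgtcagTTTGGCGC
CDC45, chr22:19479346-19479465, plus strand: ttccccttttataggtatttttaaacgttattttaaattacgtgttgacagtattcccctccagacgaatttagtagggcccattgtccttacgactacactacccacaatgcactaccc
POLE, chr12:132687343-132687462, minus strand: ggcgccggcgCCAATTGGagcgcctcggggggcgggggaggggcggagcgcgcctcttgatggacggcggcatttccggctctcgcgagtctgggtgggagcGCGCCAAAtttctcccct
RRM1, chr11:4094565-4094684, plus strand: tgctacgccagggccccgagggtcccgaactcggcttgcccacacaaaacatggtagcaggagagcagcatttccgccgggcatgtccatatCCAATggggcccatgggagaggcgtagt
TYMS, chr18:657533-657652, plus strand: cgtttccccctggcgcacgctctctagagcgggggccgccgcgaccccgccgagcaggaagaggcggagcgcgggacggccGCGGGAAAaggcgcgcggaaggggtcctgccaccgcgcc
TK1, chr17:78187205-78187324, minus strand: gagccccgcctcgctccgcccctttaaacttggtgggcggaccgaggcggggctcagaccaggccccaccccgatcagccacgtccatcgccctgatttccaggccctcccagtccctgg
PCNA, chr20:5126623-5126742, minus strand: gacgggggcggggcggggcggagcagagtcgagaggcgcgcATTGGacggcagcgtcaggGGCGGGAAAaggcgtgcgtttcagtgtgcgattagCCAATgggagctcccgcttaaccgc
ORC2, chr2:200963661-200963780, minus strand: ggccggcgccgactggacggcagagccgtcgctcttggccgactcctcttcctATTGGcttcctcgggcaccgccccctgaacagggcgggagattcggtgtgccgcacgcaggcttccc
POLD1, chr19:50384203-50384322, plus strand: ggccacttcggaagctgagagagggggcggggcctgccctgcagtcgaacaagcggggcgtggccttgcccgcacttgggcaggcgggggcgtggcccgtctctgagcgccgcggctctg

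In DTL the E2F-type letters end at the start site, with CCAAT beginning at position -31. In POLE, where CCAAT also lies on both strands in overlapping letters, they begin at position -18, in TYMS at -39 and in PCNA at -60, where both overlapping forms are present. The printed stretches of RRM1 and ORC2 hold CCAAT letters alone, and those of CDC45, TK1 and POLD1 hold none of the letters.

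Adjusted p-values are those of limma after Benjamini-Hochberg adjustment over all probes. Signals are given below as quantile-normalized log2 fluorescence, and differences as si-C1GALT1-3 minus si-control on the log2 scale with the standard error (SE) of the limma fit. A gene is said to have fallen or risen where limma gave an unadjusted p under 0.01 and at least a 2-fold difference. All 55 genes were well above background on every array that measured them. On si-control replicate 2 a low-signal block holding 15.9% of gene spots was set to missing, which leaves 9 members with 2 control values each: MCM3, MCM4, MCM5, CDC6, GMNN, GINS4, PRIM2, POLE2 and NASP. The share of gene spots well above background ran from 66.2% to 72.7% over the arrays, and no gene spot was saturated. The keratins KRT8, KRT18 and KRT19, EPCAM, CLDN4 and TFF1 exceeded background clearly on each of the 6 arrays. Of 8 markers of other cell types, 5 were also well above background on every array that measured them, with si-control means of 13.97 for PTPRC (leukocytes), 10.30 for COL1A1 and 9.29 for DES (mesenchymal cells), 9.90 for VWF (endothelium) and 6.99 for CD3E (T cells). PECAM1 was so on 2 arrays and COL1A2 on 0. No gene of either marker list passed the threshold, the 8 markers of other cell types had a median difference of -0.35, and their part in the results was not tested.

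C1GALT1 itself measured 12.22, 13.03 and 12.62 in the si-control samples and 11.76, 11.98 and 11.13 in the si-C1GALT1-3 samples. The groups did not overlap. The difference was -1.0 (SE 0.31, adjusted p = 0.265 in limma). C1GALT1 was 2-fold lower but missed the p limit, so the silenced gene did not pass the threshold.

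The replication genes were mostly lower after silencing. Of 55 members, 48 had a fitted difference below 0, against 47.6% of all genes, and their median was -0.59, against 0.02 for all genes. By role, the group medians ran from -0.96 for the enzymes of nucleotide supply, -0.69 for the MCM helicase and -0.68 for its activation to -0.32 for origin recognition and loading. The differences ran from -1.19 (DTL) to 0.21 (RPA1), and 32 members lay at -0.5 or below, where 13.5% of all genes lay. In RNA from a whole culture, fewer cells that transcribe a gene and less of its RNA per cell cannot be told apart.

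MCM5, CDC45 and DTL fell, which is 3 of 55 members (5.45%) against 1.33% of all genes, and no member rose, against 2.08% of all genes. Without the fold limit, 7 members were lower at p under 0.01, against 2.27% of all genes: MCM5, CDC45, POLE, RFC3, DTL, RRM1 and TYMS. At p under 0.05, 20 members were lower, where 7.14% of all genes were, and 0 were higher, where 9.49% were. In limma no member had an adjusted p under 0.05, and the smallest among members was 0.141, for MCM5. At an unadjusted p under 0.05 a plain per-gene test of the same values called 14 members lower, against 5.9% of all genes. In 25 members every si-C1GALT1-3 value lay below every si-control value, against 11.2% of all genes, and in 2 members, ORC2 and POLD1, every value lay above, against 14% of all genes. The counts rest on single arrays. Without si-control replicate 1, 9 members passed the threshold as lower, against 1.6% of all genes. Without si-control replicate 2 only MCM5 did, against 1.19%. None did without si-C1GALT1-3 replicate 2 or 3 or si-control replicate 3, where 1.2%, 1.25% and 1.34% of all genes did. With the slide as a replicate block none passed, against 1.25% of all genes.

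**Figure D1:**
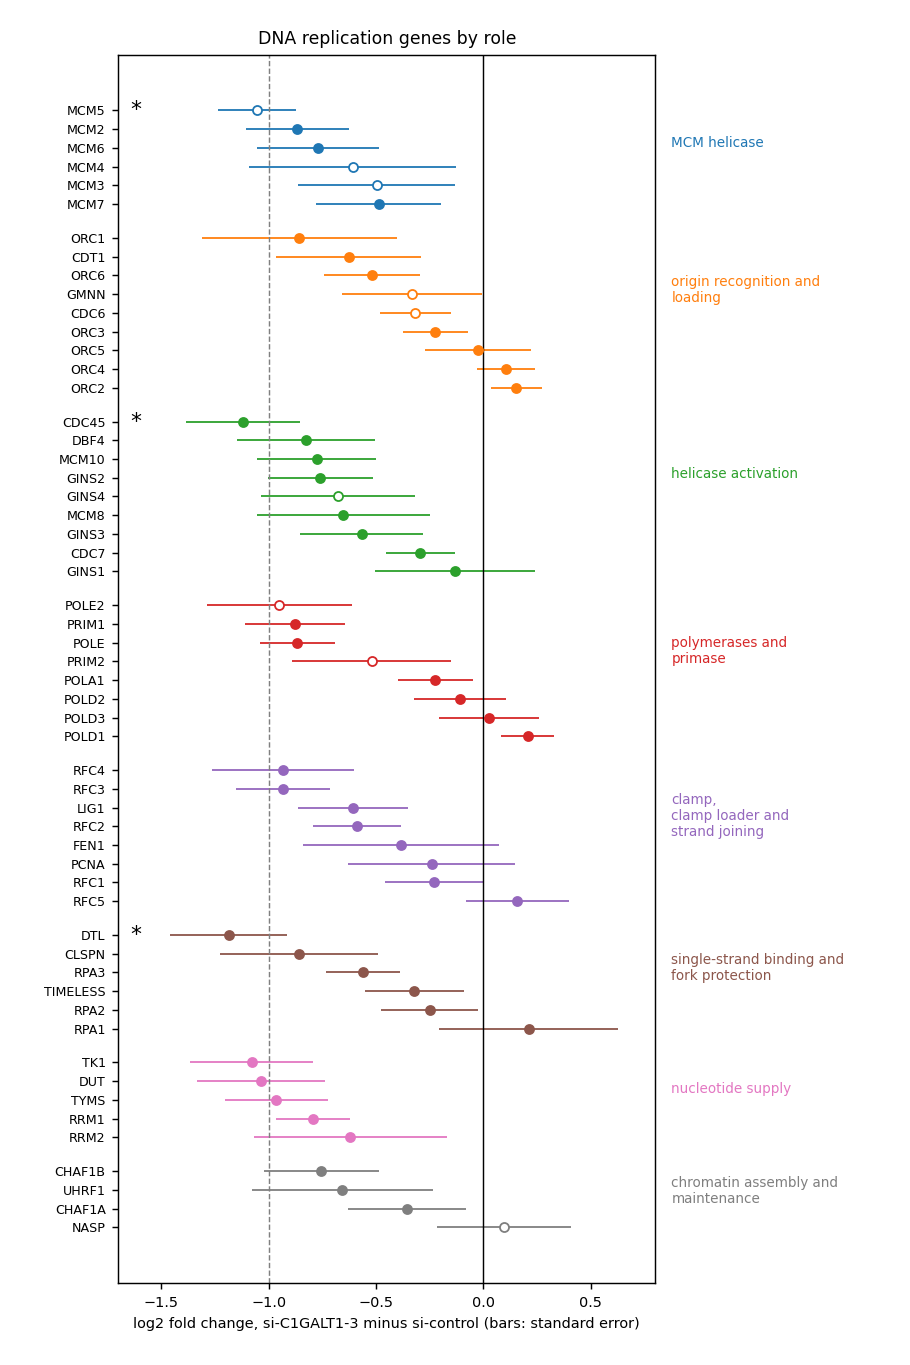
Fitted log2 difference of each of the 55 replication genes (si-C1GALT1-3 minus si-control; bars are the standard error), grouped by role, with the dashed line at 2-fold lower, open symbols for the 9 genes with 2 control values and asterisks for the 3 genes that fell. The points lie left of 0 for 48 genes, from -1.19 for DTL to 0.21 for RPA1.

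The MCM helicase is the ring of MCM2 to MCM7 that unwinds DNA ahead of the fork, and all 6 subunits had differences below 0 (median -0.69). MCM5 measured 13.98 and 14.30 in si-control replicates 1 and 3 and 13.19, 13.09 and 12.97 in si-C1GALT1-3. The treated values lay close together and well below both controls. MCM5 fell by 1.05 on the log2 scale (SE 0.18, adjusted p = 0.141 in limma), or 2.08-fold. A further MCM5 probe, which was measured on all 6 arrays, differed by -0.74 (SE 0.27, adjusted p = 0.321 in limma), below the 2-fold limit. Without the mask on si-control replicate 2 the MCM5 difference was 0.0125, so its call rests on that mask.

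MCM2 measured 12.93, 12.92 and 13.66 in si-control and 12.18, 12.38 and 12.34 in si-C1GALT1-3. The groups were apart, and the difference of -0.87 (SE 0.24, adjusted p = 0.229 in limma) missed the threshold. MCM6 was lower in the same way, at -0.77 (SE 0.28). MCM3, MCM4 and MCM7 lay at -0.50, -0.61 and -0.49, each with overlapping groups. For MCM4, si-control replicate 1 read 11.85 and replicate 3 read 13.30, with the treated samples at 12.12, 12.12 and 11.66 between and below them.

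Origin recognition and loading had the median nearest to 0 among the role groups, -0.32 over 9 genes. ORC2, a core subunit of the origin recognition complex, measured 12.33, 12.34 and 12.42 in si-control and 12.54, 12.55 and 12.46 in si-C1GALT1-3. All treated values lay above the controls, and the difference of 0.15 had a 95% interval from -0.14 to 0.45, which includes 0. ORC4 and ORC5, further subunits, lay at 0.10 and -0.02 (0.11 for ORC5 without normalization between arrays), and ORC3 at -0.22. A further ORC4 probe lay higher, at 0.50 (SE 0.15, adjusted p = 0.256 in limma). ORC1, the subunit that cycles with S phase, lay at -0.86 with a wide SE of 0.45, as its controls read 8.80, 9.44 and 10.52 and its treated samples 8.99, 8.74 and 8.45. The lowest ORC1 control lay within the treated range. CDC6, a loading factor, read 7.39 and 7.53 in the 2 controls and 6.99, 7.23 and 7.21 in the treated samples, a difference of -0.32 (SE 0.17). CDT1, which brings MCM to origins, its inhibitor geminin (GMNN) and ORC6 lay at -0.63, -0.33 and -0.52, with overlapping groups.

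Among the 9 genes of helicase activation, all differences were below 0 (median -0.68). In 7 of them every treated value lay below every control, against 11.2% of all genes. CDC45, which joins MCM and GINS into the active helicase, measured 11.61, 11.58 and 12.10 in si-control and 10.99, 10.74 and 10.20 in si-C1GALT1-3. The highest treated value lay below the lowest control. CDC45 fell by 1.12 on the log2 scale (SE 0.27, adjusted p = 0.186 in limma), or 2.17-fold. Of the GINS subunits, GINS2 lay at -0.76 (SE 0.25, adjusted p = 0.278 in limma), GINS4 at -0.68, GINS3 at -0.57 and GINS1 at -0.13. For GINS1 the controls read 10.97, 11.74 and 12.41 and enclosed the treated values of 11.65, 11.46 and 11.61. DBF4, the regulatory subunit of the CDC7 kinase, lay at -0.83 (SE 0.32), and a further DBF4 probe lay at -0.17 (SE 0.24). CDC7 itself lay at -0.29 (SE 0.16). MCM10, which binds the helicase as it fires, lay at -0.78 (SE 0.28), and MCM8, an MCM relative with a role in recombination, at -0.65 with overlapping groups.

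The polymerase and primase genes had a median of -0.37 over 8 genes, from POLE2 at -0.95 to POLD1 at 0.21. POLE, the catalytic subunit of the leading-strand polymerase epsilon, measured 10.90, 11.16 and 11.36 in si-control and 10.39, 10.33 and 10.11 in si-C1GALT1-3. The groups were apart by more than the spread within either, and the difference was -0.87 (SE 0.18, adjusted p = 0.147 in limma), under the 2-fold limit. A further POLE probe lay at -0.46. POLE2, its second subunit, read 8.64 and 9.66 in the 2 controls and 8.25, 8.24 and 8.12 in the treated samples, a difference of -0.95 (SE 0.34). POLD1, the catalytic subunit of the lagging-strand polymerase delta, measured 15.08, 15.09 and 15.19 in si-control and 15.36, 15.37 and 15.24 in si-C1GALT1-3. All treated values lay above the controls, by 0.21 on average, with a 95% interval from -0.10 to 0.51. The polymerase delta subunits POLD2 and POLD3 lay at -0.11 and 0.03, and POLD3 turned to -0.0318 with another background correction (normexp). In the primase complex, which lays down the RNA-DNA primers, PRIM1 lay at -0.88 (SE 0.23, adjusted p = 0.215 in limma), PRIM2 at -0.52 and the polymerase alpha subunit POLA1 at -0.22. Whether the epsilon and delta subunits differ from each other was not tested.

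In the clamp loader, the RFC complex that places PCNA on DNA, 4 of 5 subunits were below 0. RFC3 measured 11.82, 11.91 and 12.50 in si-control and 11.23, 11.21 and 11.00 in si-C1GALT1-3. The groups did not overlap. The difference was -0.93 (SE 0.22, adjusted p = 0.18 in limma), and a further RFC3 probe gave -1.04 (SE 0.23, adjusted p = 0.162 in limma), past the threshold. RFC4 and RFC2 lay at -0.93 and -0.59, RFC1, the large subunit, at -0.23, and RFC5 at 0.16.

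For the clamp and the flap endonuclease the groups overlapped. PCNA, the sliding clamp, measured 13.94, 14.72 and 15.42 in si-control and 14.51, 14.22 and 14.63 in si-C1GALT1-3. The controls alone spanned more than the treated samples and enclosed them, and the difference of -0.24 had a 95% interval from -1.20 to 0.72. A further PCNA probe lay at -0.25. FEN1, which trims Okazaki fragments, read 10.76, 11.52 and 12.57 in si-control and 11.33, 11.18 and 11.18 in si-C1GALT1-3, with a difference of -0.38 (SE 0.46). For both genes si-control replicate 1 was the lowest of all 6 arrays. DNA ligase 1 (LIG1), which seals the fragments, lay at -0.61 (SE 0.26) with groups that did not overlap. A fall of 2-fold is within the intervals of PCNA and FEN1.

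DTL, the substrate receptor of the ubiquitin ligase that destroys CDT1 on PCNA-bound DNA, had the most negative fitted difference of the members. It measured 9.05, 9.14 and 9.57 in si-control and 8.39, 8.23 and 7.58 in si-C1GALT1-3, the mean of 10 spots per array except where spots were missing. The lowest control lay above the highest treated value. DTL fell by 1.19 on the log2 scale (SE 0.27, adjusted p = 0.175 in limma), or 2.27-fold. Of the single-strand binding complex RPA, RPA3 lay at -0.56 (SE 0.17, adjusted p = 0.262 in limma) without overlap, RPA2 at -0.25 and RPA1 at 0.21 (SE 0.42). A further RPA1 probe, with 2 control values, lay at -0.14 (SE 0.44). The median over both RPA1 probes gave -0.64, outside the value of either, as it does not cover the same probes on every array. The fork protection genes CLSPN, the checkpoint mediator claspin, and TIMELESS lay at -0.86 and -0.32, and in both si-control replicate 1 lay within the treated range.

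The enzymes of nucleotide supply had the lowest median of the 8 role groups, -0.96 over 5 genes. TYMS, thymidylate synthase, measured 14.35, 15.00 and 15.14 in si-control and 13.91, 13.93 and 13.76 in si-C1GALT1-3. The treated samples lay close together below the lowest control. The difference was -0.96 (SE 0.24, adjusted p = 0.196 in limma), or 1.95-fold lower, just short of the limit.

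RRM1, the large subunit of ribonucleotide reductase, measured 11.00, 11.25 and 11.30 in si-control and 10.41, 10.59 and 10.17 in si-C1GALT1-3. The groups did not overlap, with a difference of -0.79 (SE 0.17, adjusted p = 0.16 in limma). RRM2, its small subunit, measured 8.08, 9.51 and 9.69 in si-control and 8.39, 8.65 and 8.39 in si-C1GALT1-3. Here si-control replicate 1 lay below all treated samples, and the difference of -0.62 had an SE of 0.45. TK1, the thymidine salvage kinase of S phase, measured 13.99, 14.23 and 15.00 in si-control and 13.40, 13.40 and 13.18 in si-C1GALT1-3, a 2.11-fold difference that just missed the p limit (adjusted p = 0.213 in limma). DUT, which removes dUTP, differed by -1.04 (SE 0.30, adjusted p = 0.239 in limma), and a further DUT probe by -0.95. TK1 and DUT exceeded 2-fold but not the p limit, and RRM1 and TYMS met the p limit but not 2-fold. With the arrays scaled to their 75th percentile, TYMS, DUT and TK1 passed both.

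**Figure D2:**
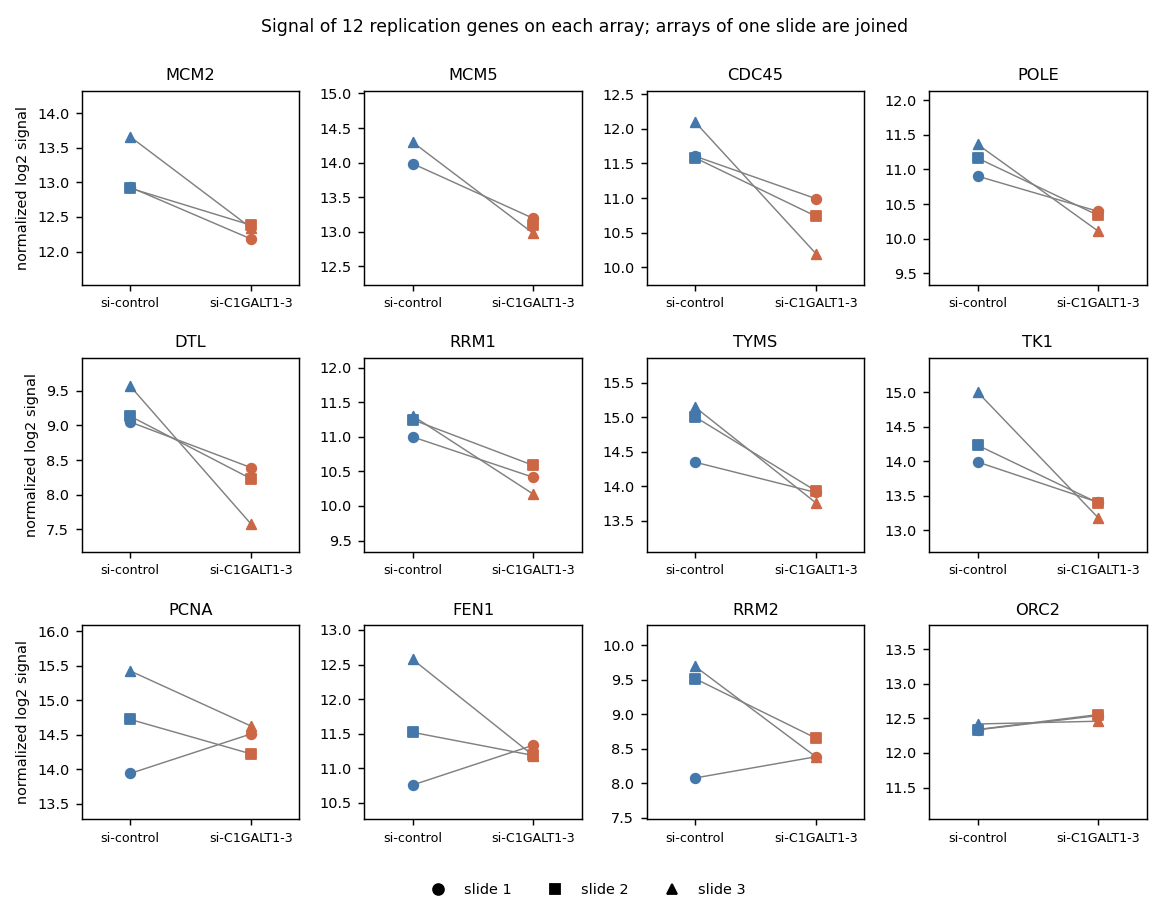
Normalized log2 signal of 12 replication genes on each of the 6 arrays (all vertical axes span a range of the same size), with the arrays of the same slide joined by a line; MCM5 has no value on si-control replicate 2. In the upper 2 rows of panels the groups do not overlap, while for PCNA, FEN1 and RRM2 si-control replicate 1 lies below the treated arrays and for ORC2 the treated arrays lie slightly above.

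Of the 4 chromatin genes, CHAF1B, a subunit of the histone chaperone CAF-1, lay at -0.75 (SE 0.27) with groups that did not overlap, and CHAF1A, another subunit, at -0.36. UHRF1, which maintains DNA methylation behind the fork, read 9.91, 10.59 and 11.58 in si-control and 10.07, 10.06 and 9.97 in si-C1GALT1-3. Its treated values were nearly alike and the lowest control lay just below them, for a difference of -0.66 (SE 0.42). NASP, a histone chaperone, lay at 0.10 (SE 0.31) with 2 control values.

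The size of the difference varied with the slide. Arrays with the same replicate number share a slide, on which si-control and si-C1GALT1-3 held fixed positions, so position on the slide and treatment cannot be told apart. On slide 1, 30 of 55 members were lower in si-C1GALT1-3 (median -0.06). On slide 2, 42 of 46 were lower (median -0.53), and on slide 3, 51 of 55 (median -1.17). The medians of all genes were 0.05, 0.02 and 0.00. Of the 46 members measured on all arrays, 24 were lower on all 3 slides, against 22% of all genes measured on each slide. The 24 included MCM2, CDC45, POLE, RFC3, DTL, RRM1, TYMS, DUT and TK1.

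CDC45 differed by -0.61, -0.84 and -1.90 on slides 1, 2 and 3. For DTL the differences were -0.66, -0.90 and -1.99, and for TYMS -0.44, -1.07 and -1.38. C1GALT1 itself differed by -0.47, -1.05 and -1.49, with its smallest difference on slide 1 too. On slide 3 the members above 0 were ORC2, ORC4, ORC5 and POLD1.

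The arrays within a group also differed. Relative to the mean of the controls, the median of the 46 members was -0.25, 0.05 and 0.27 on si-control replicates 1, 2 and 3, and -0.39, -0.55 and -0.72 on si-C1GALT1-3 replicates 1, 2 and 3. The replication genes were thus lowest on si-control replicate 1 among controls, in 38 of 46 members, and highest on si-control replicate 3 in 31 of 46. On the treated side, si-C1GALT1-3 replicate 3 was the lowest in 35 of 46. The mean SD over members was 0.382 among controls and 0.254 among treated samples, though only 25 of the 46 members had the larger SD among controls. Without si-control replicate 1 the members' median was -0.80, and without si-control replicate 3 it was -0.32 with 41 members below 0. All genes had medians of 0.01 and 0.03 in these fits. What sets the controls apart was not tested.

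**Figure D3:**
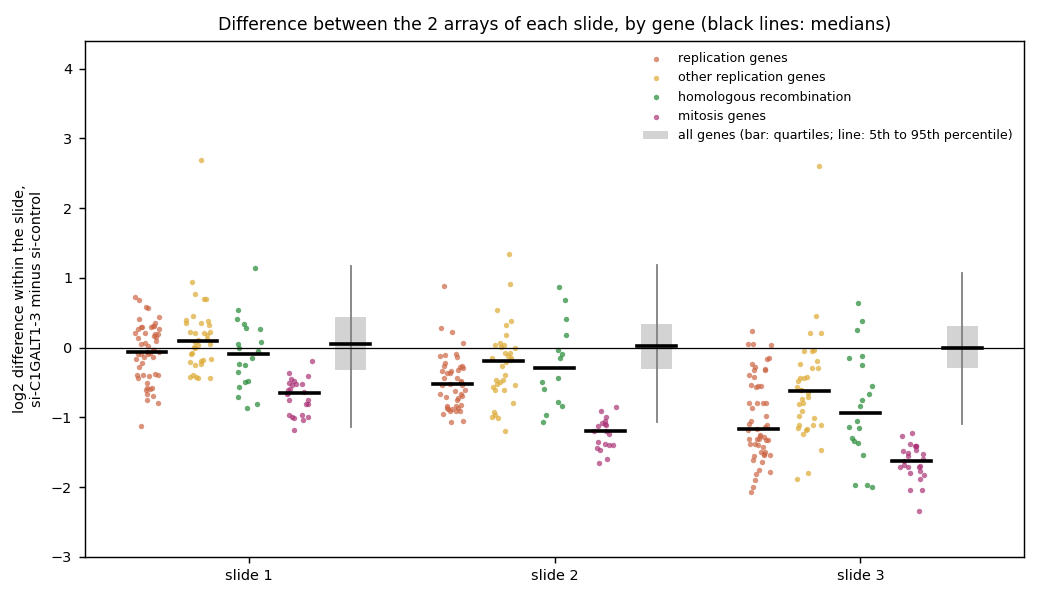
Log2 difference between the si-C1GALT1-3 and the si-control array of each slide for each gene of 4 lists (points), with black lines for medians and grey bars and lines for the quartiles and the 5th to 95th percentiles of all genes. The replication genes lie around 0 on slide 1 (median -0.06) and mostly below 0 on slide 3 (median -1.17), and the mitosis genes lie below 0 on each slide.

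Replication genes outside the 56 were also examined. A list of 36 other replication genes, among them regulators of firing, clamp loading variants and nucleotide enzymes, had a median of -0.22, with 28 below 0. None of them fell, against 1.33% of all genes, and 7 were lower at p under 0.05, where 7.14% of all genes were. The most negative was DONSON, a factor in the assembly of the replicative helicase, at -0.99 (SE 0.32), with controls at 10.13, 10.79 and 11.29 and treated samples at 9.89, 9.86 and 9.49. TK2, the mitochondrial thymidine kinase, rose: it measured 5.64, 6.80 and 5.22 in si-control and 8.34, 8.15 and 7.83 in si-C1GALT1-3. That is a difference of 2.21 (SE 0.43, adjusted p = 0.14 in limma), from a dim probe that was not well above background on si-control replicate 3. The S phase kinase TK1 and the mitochondrial TK2 were thus on opposite sides of 0.

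The mitosis genes had the lowest median of the lists examined. All 25 with a probe were below 0 and their median was -1.15. Of them 14 fell, against 1.33% of all genes: BIRC5, CDC20, BUB1, TOP2A, PTTG1, TTK, UBE2C, CDK1, FOXM1, AURKB, CCNA2, CENPE, MAD2L1 and TPX2. The lowest, BIRC5 (survivin, a subunit of the chromosomal passenger complex), lay at -1.58 (SE 0.27). On slide 1, where the replication genes had a median of -0.06, all 25 mitosis genes were lower, with a median of -0.65. Of 20 homologous recombination genes, 15 were below 0, with a median of -0.41. Of these 20, 1 fell (RAD51AP1, 5%), 40% were lower at p under 0.05 and 45% had lower groups without overlap. The shares were 5.45%, 36.4% and 45.5% for the replication genes and 1.33%, 7.14% and 11.2% for all genes. At p under 0.05, 1 of the 20 was higher, against 9.49% of all genes. The difference between these lists was not tested.

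**Figure D4:**
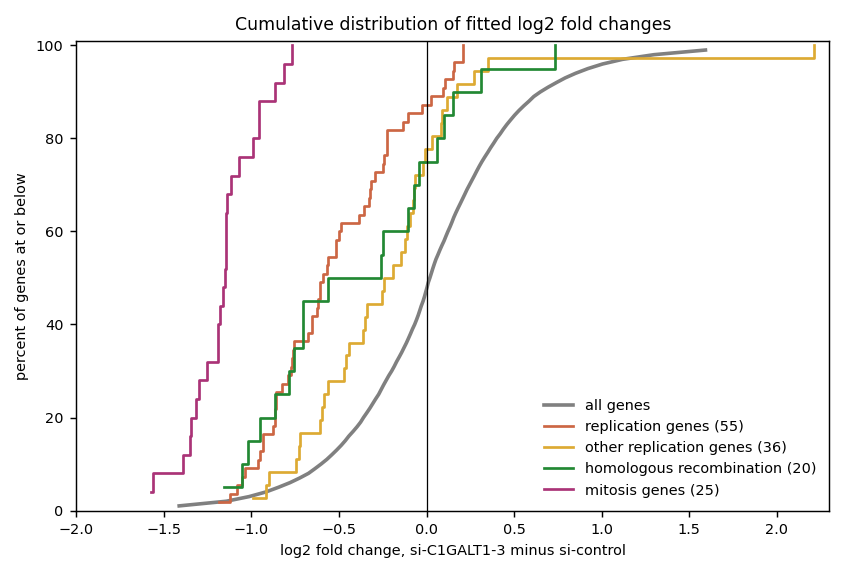
Percent of genes (vertical axis) at or below each fitted log2 difference (horizontal axis, si-C1GALT1-3 minus si-control) for all genes and 4 lists, with the number of genes in each list. The curve of the replication genes (median -0.59) lies between those of all genes (median 0.02) and of the mitosis genes (median -1.15).

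The promoters of the replication genes were then searched for short letters linked to cell cycle factors. RefSeq promoters were found for 49 members, and the 250 bases upstream of each listed start were searched on both strands. E2F-type letters were present for 20 of 49 members (40.8%), against 5.24% of 27305 genes with a promoter entry and 5.26% of 19 mitosis genes. CCAAT was present for 63.3% of members, 37% of all genes and 78.9% of the mitosis genes. The CHR-type letters TTTGAA were present for 4.08% of members (RRM1 and DUT), 16.1% of all genes and 47.4% of the mitosis genes.

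Among the members with lower, non-overlapping groups and a promoter entry, 12 of 22 held E2F-type letters: MCM6, CDC7, GINS2, PRIM1, POLE, RFC3, RFC4, LIG1, DTL, RRM1, TYMS and DUT. Among the other members, 8 of 27 did (29.6%), including PCNA, CDT1 and UHRF1. CCAAT ran the other way, at 45.5% and 77.8%. These are shares of letters in a window and were not tested, and base composition differs among promoters.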

How the data were processed

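RNA of AGS cells was measured on 6 Agilent arrays, 3 per group. The authors deposited scanner output of Agilent Feature Extraction version 10.5.1.1 (named in the submitters' processing notes), which holds fluorescence intensity per spot. The deposited processed intensity is background-corrected and not normalized between arrays. The authors also deposited a series table of background-subtracted intensity for the same spots, used as an alternative.

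Control spots were left out and spots marked as outliers (100 to 424 per array) were set to missing, as was a block of 9712 gene spots on si-control replicate 2 (15.9% of gene spots, 45.8% of rows by 34.8% of columns), whose median log2 deviation was -2.19 inside and -0.06 outside. Values were log2 transformed, quantile normalized and averaged per probe, and 58195 probes were fitted with limma 3.58.1 (lmFit, eBayes) in R 4.3.3, with Benjamini-Hochberg adjustment over all probes. The calling threshold was p under 0.01 and 2-fold. Probes were named by RefSeq accession. The number of arrays limits the precision, and an exact permutation test of 3 against 3 cannot give p below 0.1. The test was checked on simulated data with independent noise on each array, for probes measured on all 6 arrays. That check covers neither shared slides nor missing control values.

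Members and lists were chosen with earlier results of these data known. Named genes were C1GALT1, members past the threshold, the extremes of each role group, members with masked spots, members whose call or direction depended on an alternative, and genes past the threshold in other lists or their extremes. Members described beyond that rule were chosen after their values were seen. Some genes of the other lists are not reported here. The labels do not say that samples came from separate cultures, so p-values measure only the spread between these samples, which may be technical. Same-numbered arrays share a slide by the scanner files, so the number was treated as pairing in an alternative. Their deviations from the group means correlated at 0.198, 0.215 and 0.329, against -0.215 to 0.0103 for other pairs. Deviations from a group mean sum to 0 over its arrays, so these 2 sets of correlations are not independent.

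Alternatives were no mask, other scaling or none, dim probes left out, the replicate block, a trend and robust prior, and a plain per-gene t-test. Others were marked spots kept, the series table, the median over probes and each array left out. Normexp with an offset of 50 on the median spot signal was also run.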

Additional observations from a re-analysis of the deposited data

How the results depend on the processing

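No member passed as higher under any of the alternatives run, and the members' median stayed below 0, from -0.80 to -0.32. The number of members past the threshold as lower was 3 in the reported fit, where 1.33% of all genes passed. With the share of all genes in brackets, it was 5 without the mask (1.42%) and 6 with 75th percentile scaling (1.69%). It was 5 with dim probes left out (1.98%), 0 with the replicate block (1.25%) and 1 by the methods' t-test (0.744%). Without normalization it was 0 (0.575%), where all genes had a median of 0.08. At p under 0.05 the replicate block left 14 members lower, against 8.35% of all genes, and the methods' t-test 14, against 5.9%. When single arrays were left out, 0 to 9 members passed as lower, with a median from -0.80 to -0.32. In these fits 0.976% to 1.6% of all genes passed as lower. C1GALT1 (-1.0) passed with dim probes left out.

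Directions turned for some members. Without the mask MCM3 was 2.41, MCM5 0.0125, CDC6 1.05, GMNN 0.18, GINS4 1.41, PRIM2 1.93 and POLD3 -0.0855. ORC5 was 0.11 without normalization and 0.0296 by the median over probes, where RPA1 was -0.64. POLD3 was -0.0318 with normexp and -0.0158 in the series table, and NASP was -0.0067 with normexp. Over arrays left out, the ranges that crossed 0 were MCM4 -1.32 to 0.11, ORC5 -0.23 to 0.14, GMNN -0.80 to 0.13, GINS1 -0.50 to 0.22, PRIM2 -1.09 to 0.044, POLD2 -0.29 to 0.018, POLD3 -0.087 to 0.23, RFC5 -0.031 to 0.33, PCNA -0.62 to 0.12, FEN1 -0.81 to 0.10, RPA1 -0.12 to 0.66 and NASP -0.35 to 0.53. The cause of these turns was not tested, except that without the mask the low block enters the control mean of the members with spots in it, which POLD3 has not. For RPA1 the median over probes lies outside the values of both probes (0.21 and -0.14), as the further probe has only 2 control values. With 3 arrays a group, differences near 0 have no settled direction.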
